A study of Mus musculus with 4 samples.

Results

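The matrix metalloproteinases (MMPs), the ADAMTS proteinases with their ADAMTS-like relatives, and the tissue inhibitors of metalloproteinases (TIMPs) were examined in cultured mouse spermatogonia. Members were chosen by gene symbol, as every gene named Mmp, Timp, Adamts or Adamtsl followed by a number with or without the letter a or b. The rule found 51 of 55421 genes in the count table: 23 Mmp, 4 Timp, 19 Adamts and 5 Adamtsl genes. The rule itself uses symbols and no measured value.

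MMPs are zinc-dependent proteinases that cut collagens, laminins, fibronectin and other matrix proteins outside the cell. Most are secreted as inactive proenzymes, membrane-type MMPs stay anchored at the cell surface, and TIMPs block the active enzymes by binding the catalytic site. ADAMTS proteinases cut proteoglycans such as versican and aggrecan, remove the N-terminal propeptide of procollagens or cleave von Willebrand factor, whereas ADAMTS-like proteins lack the catalytic domain. In the testis, these enzymes and inhibitors are known for the turnover of the basement membrane and of cell contacts around germ cells, and fibroblasts are a well-known source of many of them.

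RNA-seq libraries came from primary spermatogonial stem cell (SSC) cultures of CD1 mice, which the study derived from testes of pups in the first week after birth and kept on irradiated mouse embryonic fibroblast (MEF) feeder cells, in medium with N2, bFGF and GDNF. The 2 Veh libraries (Veh 1 and Veh 2 by their titles) were from cultures in complete SSC medium. The 2 NRRA libraries (NRRA 1 and NRRA 2) were from cultures in nutrient restriction medium, which is complete medium diluted with Earle's balanced salt solution, together with retinoic acid (RA). The dilution also lowers N2, bFGF and GDNF. The groups differ in the dilution and in RA at once, so the parts of these cannot be told apart here. The labels give neither a mutant allele nor a transgene for these cultures, and they do not say which cultures or mice the libraries came from. For its sequencing as a whole, the study states that replicates were biological, and p-values here measure the spread between these libraries.

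Between 28022265 and 31604769 counts were assigned to genes in a library, and 3 counts corresponded to between 0.0921 and 0.111 CPM, the unit of counts scaled to the library size. Feeder and germ cell RNA were in every library, and a lower level in such bulk samples cannot tell fewer cells of a type from less RNA per cell. All 10 germ cell markers and all 27 fibroblast markers were detected at a level that could be tested. Of the fibroblast markers, 20 were lower (74.1%) and 3 were higher (11.1%) in NRRA, against 28.4% and 27.9% of all genes tested. Their median log2 fold change was -0.33, and their summed level was 12800 and 12700 CPM in Veh against 9780 and 9530 CPM in NRRA. Fn1 made a large part of this sum, with 6140 and 6090 CPM in Veh against 4360 and 4350 CPM in NRRA. The median over all genes tested was 0.0003. For the 10 germ cell markers the median was 0.0897, and 5 rose while 4 fell. All 6 markers of undifferentiated spermatogonia were lower, with a median of -2.63.

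Of the 18 tested MMP genes, 8 (44.4%) were at least 2-fold lower in NRRA, against 7.02% of all genes tested. The run of MMP genes on mouse chromosome 9 held 5 of these 8, and the sequence just before its genes is therefore shown first. The run holds 10 members between positions 7272514 and 7699585 (GRCm38), a span of 427.1 kb in which no protein-coding gene of another family is annotated. Transcripts of 5 of these genes were abundant enough to test, and all 5 were called lower, against 28.4% of all genes tested, although the call of Mmp8 depended on single libraries. Windows of 300 bases around annotated start sites (RefSeq, GRCm38.p6, 250 bases before to 50 after) were given for 36 of the 51 members and were searched on both strands for TGANTCA, the sequence bound by AP-1 factors, for the TATA motif TATAAA, and for AGGTCA, the half-site of RA receptors. TGANTCA was present for 8 of the 10 genes of the run and for 0 of the 26 other members with a window. Of all 32851 windows in the genome, 7.81% held it. Every gene of the run had a window, and the members without one, which could not be searched, include Mmp9, Mmp2 and Adamts5. TATAAA was present for 9 of the 10 genes of the run and for 3 of the 26 others, against 13.6% of all windows. In Mmp12 the match began at position 5, after the start. In Mmp8 it was TTTATA, the motif on the other strand, and began at position -3, across the start. Neither of these matches lies whole in the bases printed below. AGGTCA was present for 4 of the 10 and for 1 of the 26, against 16.3% of all windows, and a direct repeat of it with 5 bases between was in no window of a member and in 3 windows of the genome. These matches are letters in a window and do not show that a factor binds.

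The 150 bases up to the annotated start site are given for the genes of the run whose levels are described next, and for Mmp7, which holds the same letters and had no count in any library. Capitals mark TGANTCA and TATAAA, read 5′ to 3′ on the strand of the gene (GRCm38.p6).
Mmp3 (chr9:7445672-7445821, + strand): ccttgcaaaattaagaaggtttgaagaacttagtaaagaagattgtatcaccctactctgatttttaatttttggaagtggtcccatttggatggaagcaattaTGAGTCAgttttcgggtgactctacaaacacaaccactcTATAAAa
Mmp10 (chr9:7502192-7502341, + strand): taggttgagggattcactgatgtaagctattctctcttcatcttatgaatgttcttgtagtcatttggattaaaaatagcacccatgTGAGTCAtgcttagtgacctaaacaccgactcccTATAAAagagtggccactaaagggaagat
Mmp13 (chr9:7272364-7272513, + strand): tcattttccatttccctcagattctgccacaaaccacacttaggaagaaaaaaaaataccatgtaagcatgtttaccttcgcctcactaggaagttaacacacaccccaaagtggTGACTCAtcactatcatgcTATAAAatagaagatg
Mmp12 (chr9:7347224-7347373, + strand): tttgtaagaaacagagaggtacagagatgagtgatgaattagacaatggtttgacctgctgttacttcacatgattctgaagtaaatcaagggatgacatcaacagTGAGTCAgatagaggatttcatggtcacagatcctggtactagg
Mmp8 (chr9:7558279-7558428, + strand): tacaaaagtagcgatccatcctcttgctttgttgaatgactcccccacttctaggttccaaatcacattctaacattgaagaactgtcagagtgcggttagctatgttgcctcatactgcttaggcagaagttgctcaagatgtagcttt
Mmp7 (chr9:7691940-7692089, + strand): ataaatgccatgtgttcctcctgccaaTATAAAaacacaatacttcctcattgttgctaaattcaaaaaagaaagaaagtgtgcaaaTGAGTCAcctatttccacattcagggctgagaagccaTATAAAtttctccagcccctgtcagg
Mmp8 was the only tested gene of the run without TGANTCA in its window, and Mmp27, which was not tested, also lacked it. The first base of TGANTCA lay 46 bases before the start in Mmp3, 63 in Mmp10 and in Mmp7, 35 in Mmp13 and 44 in Mmp12. For Mmp12 the window is that of the second of its 2 annotated start sites, and the window at the other start held none of the motifs.

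Of the 51 members, 45 passed the filter on low counts and were tested (edgeR's quasi-likelihood test, Benjamini-Hochberg adjusted over 20232 genes). In NRRA, 24 were lower and 12 were higher, and 9 were not called. Of all genes tested, 56.4% were called, 28.4% as lower and 27.9% as higher, so that the 12 higher members (26.7% of those tested) are near the background and the 24 lower members (53.3%) are above it. With library sizes left unscaled, 34.4% of all genes were higher and 22.7% lower, and 12 members (26.7%) were higher and 20 (44.4%) lower. A change of at least 2-fold was called in 13 members downwards (28.9%) and in 6 upwards (13.3%), against 7.02% and 6.29% of all genes tested. The median log2 fold change of the tested members was -0.23, with a range from -4.84 to 2.36. Of the 45 tested members, 39 reached the filter's minimum in all libraries of both groups, and Adamts16 reached it in the Veh libraries only. The remaining 6 members, Mmp7, Mmp20, Mmp1a, Mmp1b, Mmp27 and Adamtsl2, were not tested.

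**Figure D1:**
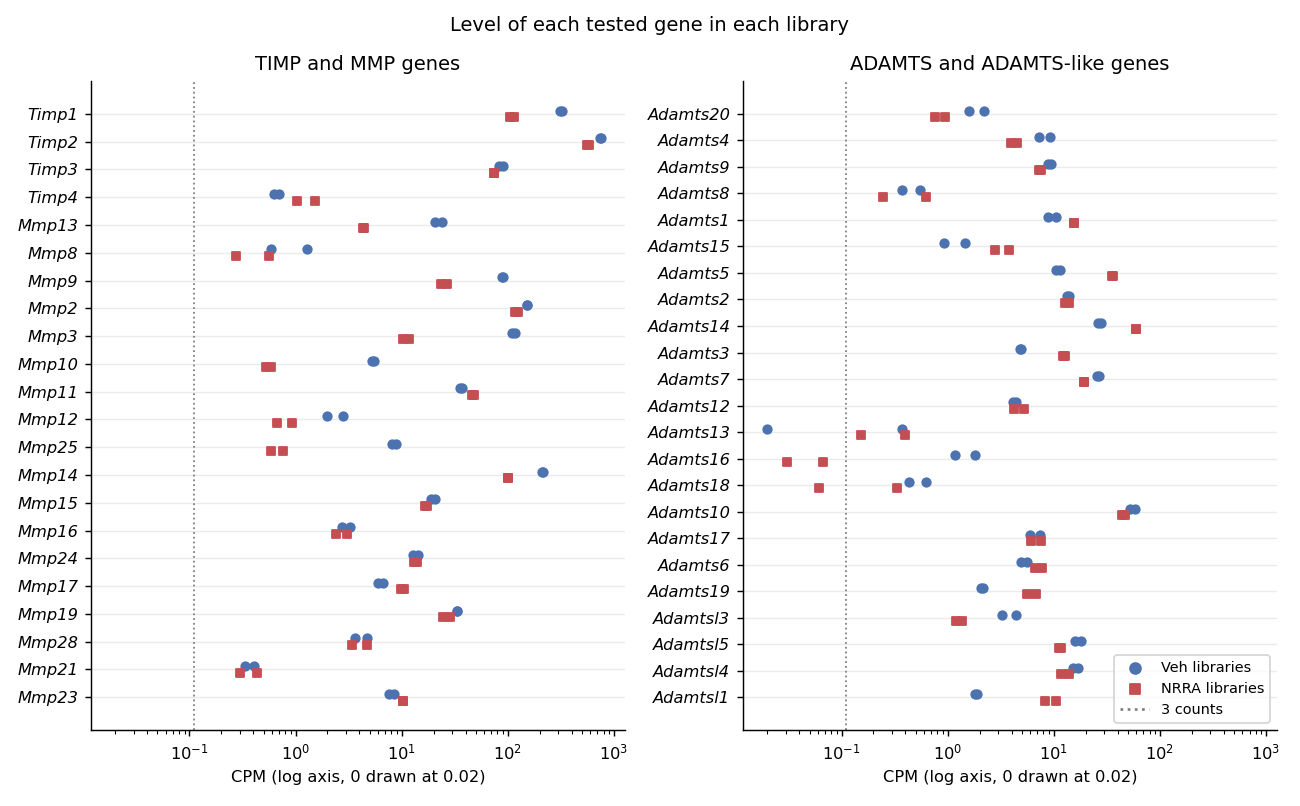
Level of each of the 45 tested members in each library, in CPM on a log axis, with Veh libraries as circles and NRRA libraries as squares. Timp2, Timp1, Mmp14 and Mmp2 lie at the right in both groups, the NRRA squares of Mmp3, Mmp10, Mmp13, Mmp25 and Adamts16 lie far to the left of the Veh circles, and those of Adamts5, Adamts19 and Adamtsl1 lie to the right.

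Among the inhibitors, Timp1, Timp2 and Timp3 fell and Timp4 rose. Timp1, a secreted inhibitor that binds most soluble MMPs and the proenzyme of MMP9, measured 324 and 310 CPM in Veh and 115 and 106 CPM in NRRA. Every NRRA library was below every Veh library, a 2.86-fold lower mean (log2 fold change -1.52, SE 0.04, adjusted p = 2.50e-22). Timp2, which blocks MMPs and also helps MMP14 to activate the MMP2 proenzyme, measured 751 and 746 CPM in Veh and 581 and 560 CPM in NRRA. Its groups did not overlap either, with a 1.31-fold lower mean (-0.39, SE 0.02, adjusted p = 1.52e-13).

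Timp3, the inhibitor that stays bound to the matrix and also blocks ADAMTS and ADAM proteinases, measured 82.0 and 90.1 CPM in Veh and 74.7 and 73.7 CPM in NRRA (log2 fold change -0.21, SE 0.05, adjusted p = 2.42e-04). The gene lies inside Syn3, whose exons cover 21.3% of the exonic bases of Timp3 on the opposite strand. The strand setting of the counting is not given in the sources used here, so reads of these bases cannot be assigned with certainty, and Syn3 itself had a log2 fold change of -0.02 (adjusted p = 0.776). Timp4, a tissue-restricted inhibitor, was near the limit of detection in this comparison, with 0.627 and 0.706 CPM in Veh and 1.04 and 1.53 CPM in NRRA. The groups did not overlap (0.94, SE 0.36, adjusted p = 0.0282), but the call was lost with DESeq2 (adjusted p = 0.199) and without Veh 1 (0.86), Veh 2 (1.02) or NRRA 2 (0.64), in log2 fold changes. Its host gene Syn2 was also higher in NRRA (0.46, adjusted p = 1.62e-04), with 1.53% of the exonic bases of Timp4 opposite to it.

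Levels of different genes were compared per kilobase of exonic sequence. The 5 highest members over the 4 libraries were Timp1 (240 CPM per kb), Timp2 (169), Mmp2 (40.3), Mmp3 (34.5) and Mmp14 (26.3), and all 5 were lower in NRRA. The order was not the same in each group. Mmp3 had a mean of 62.8 CPM per kb in Veh and of 6.13 in NRRA, where it was below Mmp11 (16.8). In NRRA, Timp2 (146) was above Timp1 (124). Summed over the 4 inhibitors, the level per kilobase was 567 and 551 in Veh and 288 and 272 in NRRA. Summed over the 23 MMP genes, it was 217 and 218 in Veh and 107 and 106 in NRRA. On this scale the sums were 2.00-fold lower for the inhibitors and 2.04-fold lower for the MMPs, and the ratio of inhibitor to MMP transcripts was 2.62 and 2.52 in Veh and 2.69 and 2.58 in NRRA, so that the groups overlapped in the ratio. With the longest transcript as the length, the ratio was 2.25 and 2.18 in Veh and 2.27 and 2.18 in NRRA. In CPM not divided by length, which weights long transcripts more, the sums were 1.52-fold lower for the inhibitors and 1.84-fold lower for the MMPs, and the ratio was 1.58 in each Veh library and 1.94 and 1.88 in NRRA, without overlap. The make-up of the inhibitor sum differed between the groups. Timp1 made 64.2% and 63.2% of it in Veh and 45% and 43.8% in NRRA, and Timp2 made 34.0% and 34.7% in Veh and 51.7% and 52.8% in NRRA. The summed ADAMTS level was higher in NRRA, at 27 and 25.6 CPM per kb in Veh and 34.7 in each NRRA library, and the ADAMTS-like sum was lower, at 8.45 and 7.76 against 6.23 and 6.53. These sums are descriptions without a test.

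**Figure D2:**
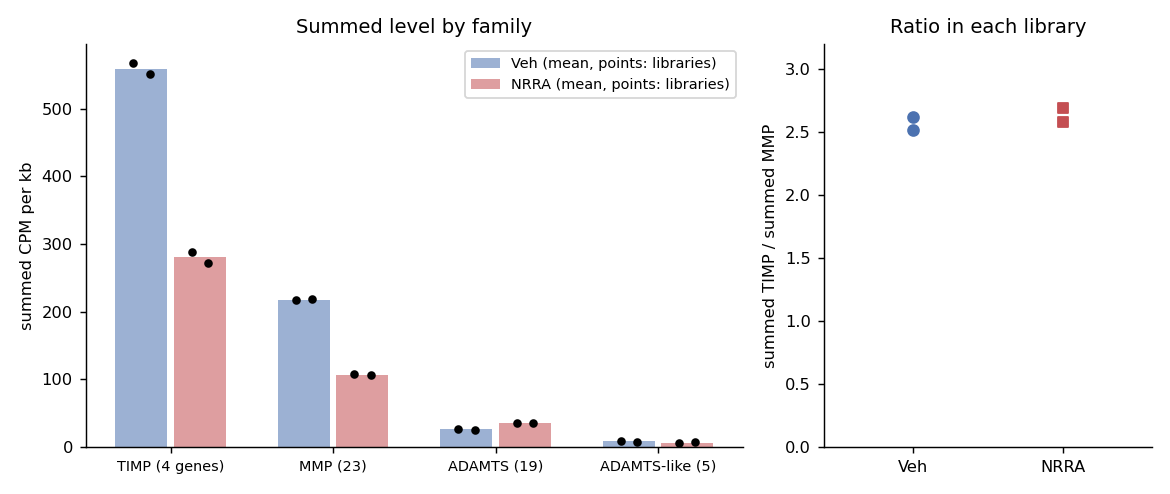
Left, summed level of the 4 families in CPM per kilobase of exonic sequence, with bars for the mean of 2 libraries and points for the libraries. Right, the summed TIMP level divided by the summed MMP level in each library, which lies between 2.52 and 2.69 in all 4 libraries on this scale.

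Stromelysins, which cut proteoglycans, laminin and fibronectin and can activate other MMP proenzymes, moved in opposite directions. Mmp3 (stromelysin 1, chromosome 9) measured 109 and 117 CPM in Veh and 11.8 and 10.3 CPM in NRRA. This was a 10.2-fold lower mean with no overlap between the groups (log2 fold change -3.35, SE 0.06, adjusted p = 2.46e-24). A stretch of at least 95% identity over at least 100 bases to the pseudogenes Gm15242 or Gm15244 covers 22.9% of its longest transcript, so that a part of its reads may have been assigned otherwise. Mmp10 (stromelysin 2) measured 5.31 and 5.44 CPM in Veh and 0.583 and 0.531 CPM in NRRA, and was 9.57-fold lower (-3.26, SE 0.24, adjusted p = 7.03e-12). Mmp11, a stromelysin by name that lies on chromosome 10 and is activated inside the cell by furin, was higher in NRRA, with 35.8 and 36.7 CPM against 47.7 and 45.8 CPM (0.37, SE 0.06, adjusted p = 3.42e-06).

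Collagenases start the breakdown of fibrillar collagen. Mmp13 measured 23.9 and 20.8 CPM in Veh and 4.42 and 4.32 CPM in NRRA, which was 5.09-fold lower and without overlap (-2.35, SE 0.11, adjusted p = 1.11e-15). Mmp8, the neutrophil collagenase, was rare, with 0.590 and 1.28 CPM in Veh and 0.276 and 0.565 CPM in NRRA. The groups were separated by less than the spread within them (-1.17, SE 0.47, adjusted p = 0.0347), and the call was lost with DESeq2 (adjusted p = 0.227), with library sizes left unscaled (adjusted p = 0.0501) and without Veh 2 (log2 fold change -0.50) or NRRA 1 (-0.73). Mmp1a and Mmp1b, the mouse relatives of human MMP1, had between 1 and 10 counts in a library and were not tested.

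Mmp12, the macrophage elastase, measured 1.99 and 2.82 CPM in Veh and 0.675 and 0.930 CPM in NRRA, a 3.01-fold lower mean (-1.59, SE 0.30, adjusted p = 4.75e-05). Of 6 macrophage markers, 2 (Cd68 and Mrc1) were lower (33.3%) and none was higher, against 28.4% and 27.9% of all genes tested. The sum of the markers was between 45.2 and 50.2 CPM in Veh and between 39.2 and 40.3 CPM in NRRA. Their part in the lower Mmp12 level was not tested. Mmp7 (matrilysin) and Mmp20 (the enamel proteinase enamelysin) had 0 counts in all libraries, which allows a level of up to 0.111 CPM in the shallowest library, and Mmp27 had between 4 and 14 counts.

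Taken as a list, the 5 tested genes of the run had a median log2 fold change of -2.35, and the 13 tested Mmp genes elsewhere had a median of -0.13, with 6 lower (46.2%), 3 higher (23.1%) and 4 not called. Of all genes tested, 28.4% were lower and 27.9% higher. Summed per kilobase over its 10 genes, the run measured 73.5 and 77.3 in Veh and 8.84 and 8.18 in NRRA. The nearest tested protein-coding genes on either side did not share this size of change. On the side of Mmp13, Dcun1d5 had a log2 fold change of 0.09 (adjusted p = 0.0986) and Dync2h1 rose by 0.26 (adjusted p = 5.15e-06). On the side of Mmp7, Tmem123 rose by 0.23 (adjusted p = 1.24e-05), Birc2 had a value of -0.09 (adjusted p = 0.170), and Birc3, an inhibitor of apoptosis, fell by 0.31 (adjusted p = 0.0252).

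**Figure D3:**
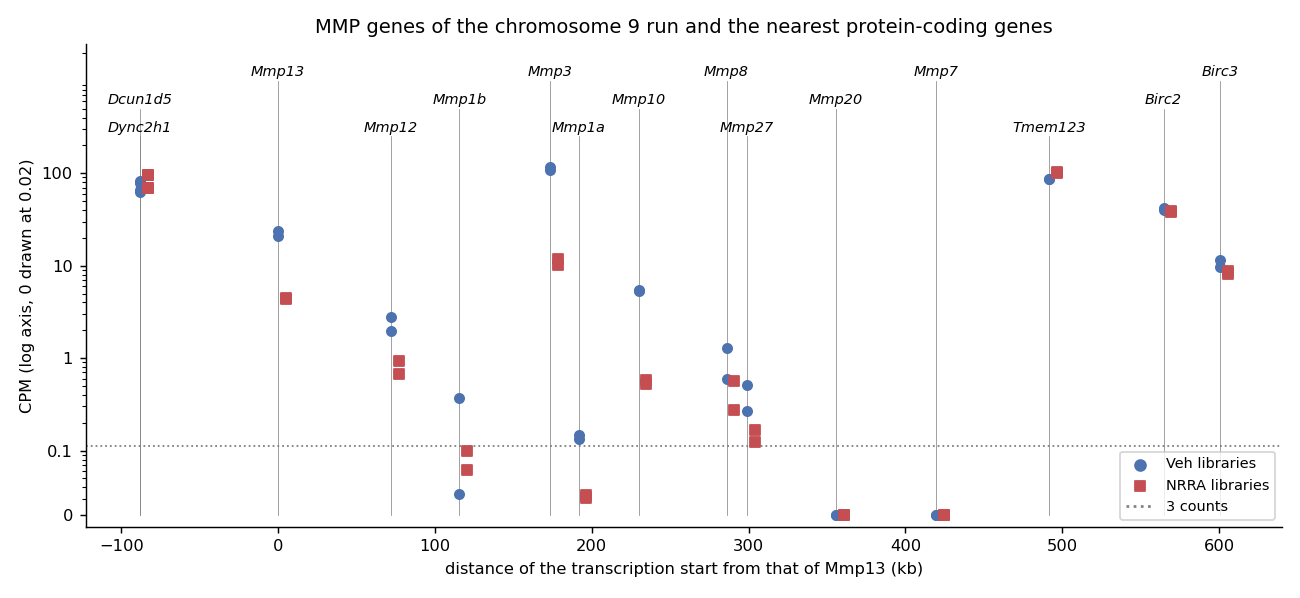
Level in CPM (log axis) of the 10 MMP genes of the chromosome 9 run and of the nearest protein-coding genes, by the distance of the start site from that of Mmp13 in kilobases. NRRA libraries (squares, drawn slightly to the right) lie below Veh libraries (circles) for Mmp13, Mmp12, Mmp3, Mmp10 and Mmp8, and close to them for the flanking genes, of which Dync2h1 and Dcun1d5 share a start region and are drawn over each other. Mmp7 and Mmp20, with 0 counts, are drawn at 0.02 and labelled 0.

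The gelatinases, which cut denatured collagen and type IV collagen of basement membranes, lie outside the run and were both lower. Mmp9 measured 90.0 and 87.8 CPM in Veh and 27 and 23.7 CPM in NRRA, a 3.50-fold lower mean (-1.81, SE 0.06, adjusted p = 1.14e-19). Mmp2, the gelatinase of fibroblasts and other stromal cells, measured 151 CPM in each Veh library and 118 and 124 CPM in NRRA, which was 1.25-fold lower (-0.32, SE 0.03, adjusted p = 1.03e-08). Neither gene had groups that overlapped. The value of Mmp2 lay next to the median of the fibroblast markers (-0.33), whose part in it was not tested.

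Of the 6 membrane-type MMPs, 3 were lower (50%), 1 was higher (16.7%) and 2 were not called, against 28.4% lower and 27.9% higher among all genes tested. Mmp14, which activates the MMP2 proenzyme at the cell surface and cuts collagen itself, measured 216 and 209 CPM in Veh and 101 CPM in each NRRA library (2.10-fold lower, log2 fold change -1.07, SE 0.03, adjusted p = 1.01e-19). Mmp25, a leukocyte proteinase held by a lipid anchor, fell from 8.19 and 8.84 CPM in Veh to 0.583 and 0.764 CPM in NRRA. Its mean was 12.6-fold lower (-3.66, SE 0.21, adjusted p = 3.11e-14). Mmp17, the other lipid-anchored member, moved the other way, with 6.71 and 5.95 CPM in Veh and 9.95 and 10.6 CPM in NRRA (0.70, SE 0.12, adjusted p = 2.19e-05).

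Mmp15 was lower by a small amount (-0.23, adjusted p = 0.0202), a call that was lost with DESeq2 (adjusted p = 0.181), with library sizes left unscaled (adjusted p = 0.155) and without Veh 1 (-0.16) or NRRA 1 (-0.20). Mmp16 (-0.13, adjusted p = 0.626) and Mmp24 (-0.01, adjusted p = 0.929), which is best known from neurons, were not called. Of the MMPs without a class of their own, Mmp19 was lower (-0.31, adjusted p = 4.55e-04) and Mmp23 was higher (0.34, adjusted p = 0.0128). The genes Tmem198b and Gm47093 on the opposite strand together cover 28.3% of the exonic bases of Mmp19. Tmem198b was itself lower (-0.40, adjusted p = 1.23e-05), and Gm47093 was not called (0.28, adjusted p = 0.599). The call of Mmp23 was lost with DESeq2 (adjusted p = 0.130) and without Veh 1 (0.27). Mmp21 and Mmp28, the latter known from skin and testis, were not called (-0.01 and -0.05).

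**Figure D4:**
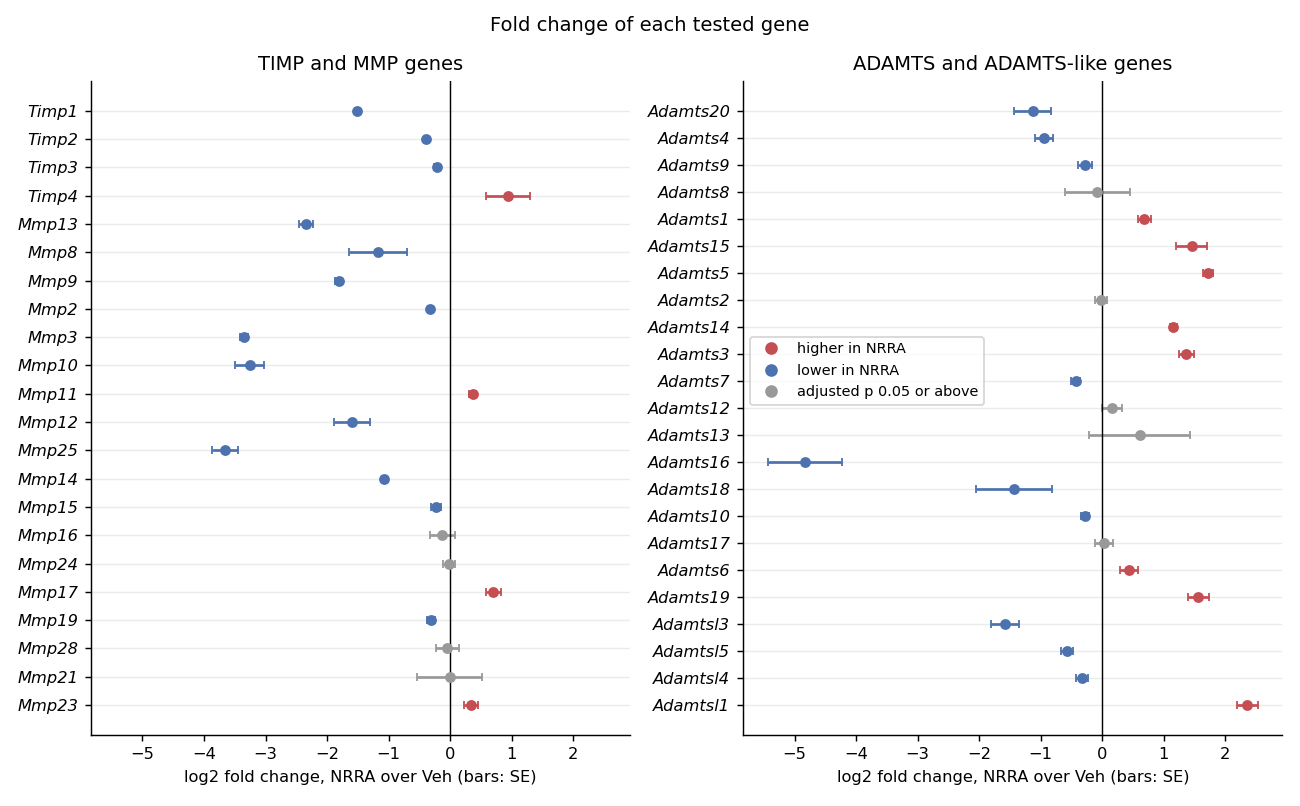
Log2 fold change of NRRA over Veh for each tested member, with bars for the standard error, grouped by role from top to bottom. MMP and TIMP genes reach from -3.66 (Mmp25) to 0.94 (Timp4), and ADAMTS and ADAMTS-like genes from -4.84 (Adamts16) to 2.36 (Adamtsl1).

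Of the 19 ADAMTS genes, 7 were higher (36.8%), 7 were lower (36.8%) and 5 were not called, against 27.9% and 28.4% of all genes tested, and the median log2 fold change was 0.03. Among the 7 proteoglycanases, which cut aggrecan, versican and related proteins, 3 were higher, 3 were lower and 1 was not called. Adamts5, the main aggrecanase of mouse cartilage, measured 11.5 and 10.4 CPM in Veh and 35.2 and 36.5 CPM in NRRA, a 3.28-fold higher mean (1.72, SE 0.08, adjusted p = 4.92e-16). Adamts1, which cuts versican, lies 53.1 kb from Adamts5 on chromosome 16 and was also higher, with 10.5 and 8.87 CPM against 15.5 and 15.4 CPM (0.68, SE 0.10, adjusted p = 3.05e-06). Adamts15 measured 0.922 and 1.45 CPM in Veh and 3.75 and 2.79 CPM in NRRA (1.46, SE 0.25, adjusted p = 2.14e-05), whereas Adamts8, 20.1 kb away on chromosome 9, was not called (-0.08, adjusted p = 0.912).

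Adamts4, the aggrecanase that inflammatory signals are known to induce, went down from 7.23 and 9.14 CPM in Veh to 3.99 and 4.52 CPM in NRRA (-0.95, SE 0.15, adjusted p = 5.01e-06). Adamts20, known for the spread of pigment cells in the skin, measured 1.59 and 2.18 CPM in Veh and 0.952 and 0.764 CPM in NRRA. It was 2.19-fold lower (-1.13, SE 0.30, adjusted p = 0.00229), and the call was lost with DESeq2 (adjusted p = 0.0527) and without Veh 2 (-0.88). Adamts9 was lower near the threshold (-0.28, adjusted p = 0.0467), and that call was lost with DESeq2 (adjusted p = 0.279), with unscaled library sizes (adjusted p = 0.175), with no filter on low counts (adjusted p = 0.0819) and without Veh 1 (-0.23), NRRA 1 (-0.31) or NRRA 2 (-0.25).

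The procollagen N-proteinases remove the N-terminal propeptide so that collagen can assemble into fibrils. Adamts14 measured 27.6 and 26 CPM in Veh and 60.1 and 59.5 CPM in NRRA, a 2.23-fold higher mean (1.16, SE 0.06, adjusted p = 1.92e-15). Adamts3, which also processes the lymphatic growth factor VEGFC, measured 4.90 and 4.77 CPM in Veh and 12.3 and 12.7 CPM in NRRA (2.58-fold higher, log2 fold change 1.37, SE 0.12, adjusted p = 2.69e-10). Both NRRA libraries were above both Veh libraries for these 2 genes. Adamts2, the main enzyme for type I procollagen, measured 13.3 and 13.8 CPM in Veh and 14 and 12.8 CPM in NRRA, and its groups overlapped (-0.02, SE 0.10, adjusted p = 0.898).

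Of the proteinases of cartilage oligomeric matrix protein, Adamts7 was lower (26.6 and 25.5 CPM against 19.3 CPM in each NRRA library, log2 fold change -0.43, adjusted p = 1.47e-05) and Adamts12 was not called (0.16, adjusted p = 0.421). Adamts13, which cuts von Willebrand factor, had counts of 10 and 0 in Veh and 5 and 12 in NRRA and was not called. Without Veh 1, the Veh group rests on the library with 0 counts, and the fitted log2 fold change went from 0.61 to 6.09 (adjusted p = 0.0268).

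The remaining ADAMTS genes included members with few counts. Adamts16, which is known from kidney, gonads and blood pressure genetics, had counts of 49 and 35 in Veh and 1 and 2 in NRRA. The ratio of summed counts, scaled to library size, was 30.9 in favour of Veh, with a 95% exact counting interval from 10.2 to 153 that covers counting error only (adjusted p = 1.28e-07). It passed the filter through the Veh libraries alone, where it is high. Adamts19, best known from the gonads and heart valves, rose from 2.06 and 2.15 CPM in Veh to 6.82 and 5.65 CPM in NRRA, a 2.96-fold higher mean (1.56, SE 0.18, adjusted p = 2.75e-08). Adamts18 was near the limit of detection, with 0.627 and 0.437 CPM in Veh and 0.0614 and 0.332 CPM in NRRA (-1.44, SE 0.62, adjusted p = 0.0496). Its call was lost with DESeq2 (adjusted p = 0.284), with unscaled library sizes (adjusted p = 0.0646), with no filter on low counts (adjusted p = 0.0667) and without Veh 1 (-1.16), Veh 2 (-1.68) or NRRA 1 (-0.66), and without NRRA 2 its value was -3.02.

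Adamts10, which binds fibrillin, was lower by a small amount (-0.28, adjusted p = 1.59e-04), and Adamts17 was not called (0.03, adjusted p = 0.890). Adamts6, the closest relative of Adamts10, was higher (0.44, adjusted p = 0.0106), a call that was lost with DESeq2 (adjusted p = 0.117) and without Veh 1 (0.35) or NRRA 1 (0.32).

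Among the ADAMTS-like genes, whose products bind the matrix without cutting it, 3 were lower, 1 was higher and 1 was not tested. With 4 genes tested, the single higher gene makes 25%, close to the 27.9% of all genes, and 28.4% of all genes were lower. Adamtsl1 had the largest rise of the family, from 1.88 and 1.81 CPM in Veh to 10.6 and 8.34 CPM in NRRA. Its mean was 5.13-fold higher (2.36, SE 0.17, adjusted p = 6.36e-12). Adamtsl3 went the other way, from 3.28 and 4.37 CPM in Veh to 1.20 and 1.36 CPM in NRRA, with no overlap between the groups (-1.58, SE 0.23, adjusted p = 1.51e-06). Adamtsl5 (-0.58, adjusted p = 1.10e-05) and the fibrillin-binding Adamtsl4 (-0.33, adjusted p = 0.00700) were also lower, and the call of Adamtsl4 was lost with DESeq2 (adjusted p = 0.0927) and without Veh 1 (-0.25) or NRRA 1 (-0.20). Adamtsl2 had between 1 and 7 counts in a library.

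The genes that activate MMPs, block them or act beside them were taken from lists. Their counts stand against 28.4% lower and 27.9% higher among all genes tested. Plasmin activates several MMP proenzymes, and of 8 tested genes of plasminogen activation, 5 fell (62.5%) and 1 rose (12.5%), and the median log2 fold change was -0.60. Serpinb2, an inhibitor of plasminogen activators, fell by 3.42 on the log2 scale (42.0 and 40.7 CPM in Veh, 4.64 and 3.02 CPM in NRRA). Plaur, the receptor of urokinase, fell by 1.97 and the membrane serine proteinase St14 fell by 1.02. Plat, the tissue-type activator, rose by 0.97 (70.3 and 74.2 CPM against 141 and 143 CPM), and urokinase itself (Plau) was not called (0.07, adjusted p = 0.491).

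Of 12 genes for other activators, inhibitors and uptake receptors of MMPs, 5 fell (41.7%), 3 rose (25%) and none changed by 2-fold, and the median was -0.25. Reck, a membrane-anchored inhibitor of MMP2, MMP9 and MMP14, measured 29.7 and 33.3 CPM in Veh and 55.4 and 57.9 CPM in NRRA (0.84, SE 0.06, adjusted p = 3.13e-12). Cd44, which holds MMP9 at the cell surface, fell by 0.94. Lrp1, the receptor that takes up several MMPs and TIMP complexes, fell by 0.43, and Furin, which cuts the proenzymes of membrane-type MMPs, fell by 0.38.

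Of 14 substrate genes other than collagens, 6 rose (42.9%) and 7 fell (50%), and the median was -0.05. The largest rise was that of Eln, the elastin gene (log2 fold change 1.81), and the smallest that of Nid2 (0.14). The other higher ones were Acan (aggrecan of cartilage, 1.12), Comp (also a cartilage protein, 1.6), Bcan (brevican of the nervous system, 1.11) and Ncan (neurocan, likewise, 1.74). Vcan, the versican gene, fell by 0.59 (162 and 150 CPM in Veh, 104 and 103 CPM in NRRA). Hapln1, the link protein that fastens proteoglycans to hyaluronan, fell by 3.16, and Vwf, the substrate of ADAMTS13 and an endothelial gene, fell by 3.28. Of 5 endothelial markers, 2 were lower (40%) and none was higher, against 28.4% and 27.9% of all genes tested. The summed level of the markers was 19 CPM in each Veh library and 8.11 and 7.97 CPM in NRRA. The part of endothelial cells in the Vwf value was not tested.

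Of 8 tested ADAM sheddases, the membrane-bound relatives of ADAMTS proteinases, 4 fell (50%) and 1 rose (12.5%), and the median was -0.20. Adam33 fell by 2.27 and Adam12 fell by 1.09, whereas Adam10 (0.05) and Adam17 (-0.06), the main sheddases of growth factors and cytokines, were not called. Of 5 tested astacin proteinases and enhancers, which process the other end of procollagen, Tll1 fell by 1.52 and Bmp1 fell by 0.14, and the enhancer Pcolce rose by 0.35.

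**Figure D5:**
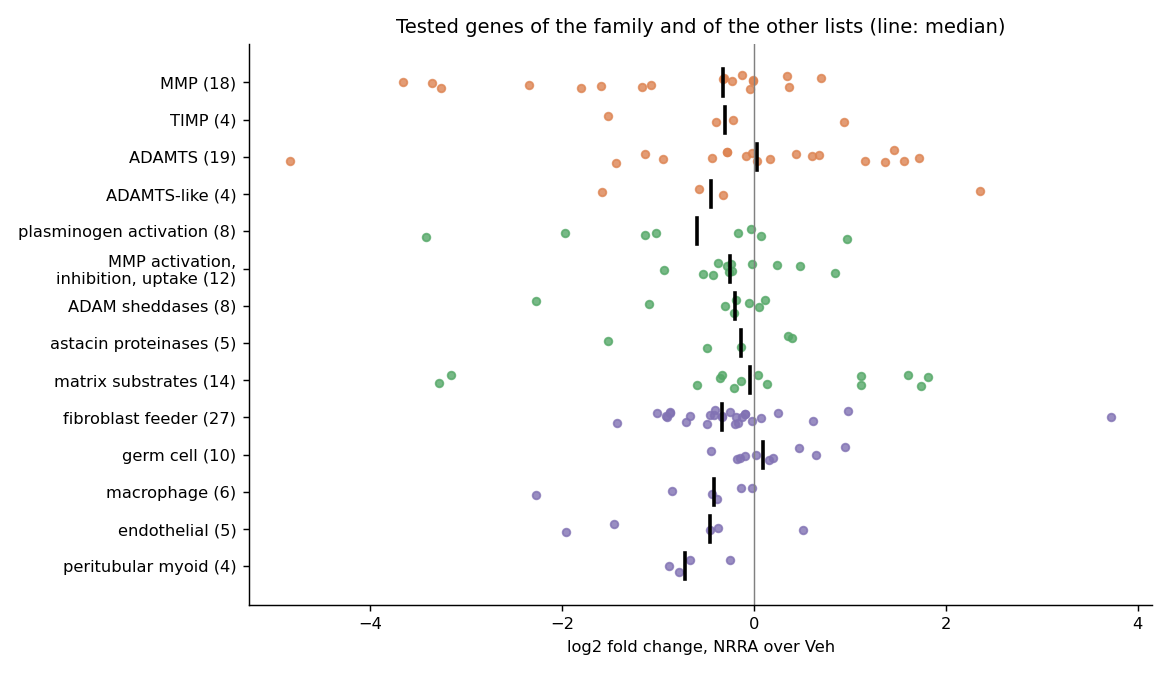
Log2 fold change of NRRA over Veh for each tested gene of the 4 families (orange), of pathway lists (green) and of cell type markers (violet), with a black line at the median of each list. MMP genes reach far to the left of the fibroblast markers, most of which lie between -1.43 and 0.

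Of the 27 fibroblast markers, 2 were at least 2-fold lower (7.41%), Lum (-1.43) and S100a4 (-1.01), which is near the 7.02% of all genes tested. Of the 18 tested MMP genes 8 were (44.4%). Fap, a membrane serine proteinase of activated fibroblasts that degrades gelatin, was the marker with the largest rise, from 0.664 and 0.639 CPM in Veh to 9.03 and 8.27 CPM in NRRA (3.73, SE 0.21, adjusted p = 2.02e-14). Pdgfra (0.98) and Col3a1 (0.61) were the other fibroblast markers that rose. Of 4 peritubular myoid markers, 3 were lower (75%) and none was higher, against 28.4% and 27.9% of all genes tested. The median log2 fold change of the 4 was -0.72, and their sum was 16.1 and 17.1 CPM in Veh against 11.5 and 10.5 CPM in NRRA. Of 8 Sertoli cell markers 4 were tested, of which 1 was lower (Sox9, -1.59) and 1 was higher (Inha, 0.53), and Fshr had 0 counts in all libraries. The sum of the 8 was 37 and 40.8 CPM in Veh against 20.6 and 20.3 CPM in NRRA. Most of its fall was that of Sox9, at 27.1 and 29.4 CPM in Veh against 9.33 and 9.43 CPM in NRRA. Of 6 Leydig cell markers 2 were tested, and 1 was higher. The part of the feeder cells and of these other cells in the values of the family was not tested, since the libraries do not separate the cell types.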

How the data were processed

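The authors deposited raw counts per gene for 4 libraries. The submitters' processing notes name bcl2fastq, STAR 2.6.1c, featureCounts 1.6.4 and mm10. The annotation release and the strand setting are not given in the sources used here, and the study's methods and the labels name different library kits. Reads of overlapping or near-identical genes may therefore be assigned uncertainly. Title numbers name the libraries, although the descriptions of the Veh libraries carry other numbers.

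Counts were tested in edgeR 4.0.16 (R 4.3.3) with filterByExpr, TMM and a robust quasi-likelihood F test of NRRA against Veh, Benjamini-Hochberg adjusted over all genes tested (threshold 0.05). The code was tested on simulated data. CPM uses TMM-scaled library sizes, and SEs were derived from the F statistic. Alternatives were DESeq2 1.42.0, other scalings and filters, glmTreat, a replicate block, leaving out each library and, added after seeing the data, sums without length scaling. Positions and exonic lengths are from GENCODE M21 (GRCm38), in which 99.7% of identifiers were found, and near-identity is from BLAST.

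The members and lists were chosen with earlier results of these data known. Full values are given for each Timp, for called members with an absolute log2 fold change of at least 1, and for the 5 members highest per kilobase. Others are named within their role or list.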

Additional observations from a re-analysis of the deposited data

How the results depend on the processing

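With 2 libraries a group, 27 of the 36 called members kept their direction and their call under every alternative run for single members, which leaves out the test against a 1.5-fold change, and the other 9 are named in the report with the alternatives that ended their call. Under DESeq2 these 9 calls were lost. No called member changed direction. With a test against a 1.5-fold change (glmTreat), 6 members were higher and 11 lower, and 1382 of all genes were higher and 1548 lower. Leaving out 1 library kept the sign of the log2 fold change of every called member, and the calls it ended are given with each gene. With the replicate number as a block, 12 members were higher and 24 lower, and 5772 and 5836 of all genes, against 5654 and 5752 without it. With unscaled library sizes, 6962 of all genes were higher and 4593 lower. The summed inhibitor to MMP ratio in NRRA was 1.02 times that in Veh per kilobase and 1.21 times without length scaling, an alternative chosen after seeing the data. The numbers pair no samples by the labels, and the deviations of libraries with the same number had a correlation of -0.0106 over genes. The block left the call of every tested member as it was.

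The members that changed sign were all without a call. With unscaled library sizes, the log2 fold change was 0.073 for Adamts2, 0.0080 for Adamts8, 0.079 for Mmp21, 0.078 for Mmp24 and 0.044 for Mmp28. With 1 library left out, it ranged from -0.0026 to 0.31 for Adamts12, from -0.43 to 6.09 for Adamts13, from -0.15 to 0.19 for Adamts17, from -0.077 to 0.042 for Adamts2, from -0.89 to 0.46 for Adamts8, from -0.32 to 0.036 for Mmp16, from -0.29 to 0.22 for Mmp21, from -0.10 to 0.073 for Mmp24 and from -0.29 to 0.18 for Mmp28. The cause was not tested. Depth limits members below about 1 CPM, where counting error is large.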
